A study of Mus musculus with 4 samples.

Results

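Apolipoprotein genes were read in RNA of gonadal white adipose tissue (WAT) of mice fed a fat diet or a normal diet. The 10 genes are Apoa1, Apoa2, Apoa4, Apob, Apoc1, Apoc3, Apod, Apoe, Apoh and Apom. They were taken by gene symbol from the probe annotation of the arrays, and all 10 were found among 20239 named probe sets, with 1 probe set for each gene. The mice were male NMRI mice, an outbred laboratory stock, and were 48 days old when the fat pads were taken. The FD mice had received a fat diet with 18% fat for 8 days from the age of 40 days, and the ND mice a normal diet with 3.3% fat throughout. RNA of 3 mice was pooled for each diet, and each pool was hybridised to 2 Affymetrix mouse gene arrays. Each diet is therefore represented by 1 RNA pool. The 2 arrays of a diet repeat the measurement of that pool, and the spread between mice was not measured, so no p-value was computed. The diets came from different makers. The paper took RNA for its PCR from small pieces of fat, and whether the array RNA was taken in that way is not stated. What the maker or the choice of tissue piece adds to a difference between FD and ND cannot be told apart from the fat content.

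Apolipoproteins are the protein parts of lipoproteins, the particles that carry triglycerides and cholesterol through plasma. Some of them build the particle, some bind the receptors that take it up, and some activate or inhibit the enzymes that change its lipids. Most are secreted by liver, and in part by small intestine or kidney. Others are also made in many tissues, among them adipose tissue, where adipocytes, macrophages and fibroblasts express them. For comparison, Apoa1, Apoa2, Apoa4, Apob, Apoc3, Apoh and Apom were taken as liver-type, and Apoc1, Apod and Apoe as locally made. Apoc1 is strongly expressed in liver as well, so its class is a matter of choice.

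The genes called higher in FD were all of liver-type, Apoa1, Apoa2, Apob and Apoc3. Of the locally made genes Apod was called lower in FD, and the other 5 genes were not called. A gene was called when the mean log2 values of the diets differed by at least 1.5-fold, which is 0.58 on the log2 scale, when both FD arrays lay on the same side of both ND arrays, and when the 4 arrays together averaged 6 or more. All 10 genes reached that level. Of 18211 probe sets at that level, 1.33% were called higher and 4.28% were called lower in FD, against 4 and 1 of the 10 apolipoprotein genes. FD and ND were without overlap in 8 of the 10 genes, but this was also the case for 63.5% of the 18211 probe sets. Whether a gene near a value of 6 was expressed was not tested, since no detection call was used. The median difference, FD minus ND, was 0.78 for the 7 liver-type genes and -0.34 for the 3 locally made genes on the log2 scale, against 0.03 for all probe sets.

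On every pair of 1 FD array and 1 ND array, the median difference was positive for the liver-type genes and negative for the locally made genes. It lay between 0.62 and 0.93 for the liver-type genes and between -0.51 and -0.16 for the locally made genes. The median of the locally made genes was in each pair the value of Apoc1, which was not called. The distance between the 2 medians was 1.12 for the means of the arrays and between 1.02 and 1.15 for the 4 pairs. It thus exceeded the spread between arrays, which says nothing about the spread between mice. RNA of the whole tissue was measured, so that fewer cells of a type and less RNA in each cell cannot be told apart. All 14 measured adipocyte genes reached a mean of 6, and Adipoq, the gene of adiponectin, was at 13.46 and 13.45 in FD and at 13.25 and 13.54 in ND.

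**Figure D1:**
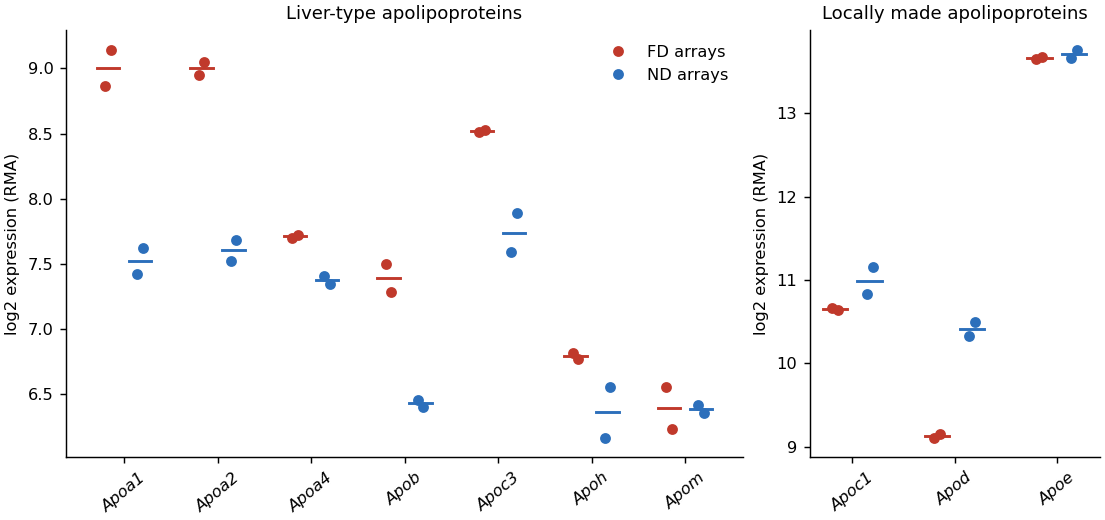
The log2 expression values of the 10 apolipoprotein genes are plotted for each array, with FD (red) left of ND (blue) and a line at the mean of the 2 arrays of 1 RNA pool. The FD arrays of Apoa1 and Apoa2 lie at 8.87 or more and their ND arrays at 7.69 or less, while the FD arrays of Apod lie at 9.16 or less and its ND arrays at 10.33 or more.

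The DNA upstream of the genes is shown for Apoa1, Apoa2 and Apob, which were higher in FD, for Apod, which was lower, and for Apoe, which was not called. The sequences are the 120 bases before the first listed transcription start in the RefSeq annotation of GRCm38.p6, written on the strand of the gene. They lie at chr9:46228510-46228629 on the plus strand for Apoa1, at chr1:171224934-171225053 on the plus strand for Apoa2, at chr12:7977557-7977676 on the plus strand for Apob, at chr16:31314809-31314928 on the minus strand for Apod and at chr7:19699189-19699308 on the minus strand for Apoe. Capitals mark the letters of a motif match.
Apoa1: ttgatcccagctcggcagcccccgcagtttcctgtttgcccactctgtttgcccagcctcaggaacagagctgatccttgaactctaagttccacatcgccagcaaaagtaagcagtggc
Apoa2: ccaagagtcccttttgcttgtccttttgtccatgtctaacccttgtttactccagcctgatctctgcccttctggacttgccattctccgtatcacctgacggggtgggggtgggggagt
Apob: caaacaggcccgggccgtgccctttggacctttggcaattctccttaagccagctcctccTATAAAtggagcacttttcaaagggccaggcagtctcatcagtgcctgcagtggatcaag
Apod: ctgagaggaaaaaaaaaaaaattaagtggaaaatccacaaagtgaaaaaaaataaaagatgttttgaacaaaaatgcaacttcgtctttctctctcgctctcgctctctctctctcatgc
Apoe: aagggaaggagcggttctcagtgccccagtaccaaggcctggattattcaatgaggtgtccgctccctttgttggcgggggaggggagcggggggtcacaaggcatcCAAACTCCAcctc

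The motifs were searched from 250 bases before to 50 bases after each start, and 8 of the 10 genes had such a sequence. The core motif of HNF4, a transcription factor of hepatocytes, was searched as CAAAGTCCA on both strands with at most 1 mismatch. It was found at the first start of Apoa4 and Apoe, and in 8.47% of 32851 promoter sequences. The letters GTTAAT of HNF1, a further hepatocyte factor, were searched on both strands without mismatch. They were found at the first start of 0 of the 8 genes, and in 7.1% of all promoter sequences. The TATA box was searched as TATAAA on the strand of the gene and was found at the first start of Apoa2, where it lies further upstream than the bases shown, and of Apob. It was present in 8.32% of all promoter sequences. Of the further starts listed for these genes, start 2 of Apoa2 and start 3 of Apoe had a match to the HNF4 motif, start 3 of Apoe also had the letters of HNF1, and start 2 of Apoe had a TATA box. A match is a description of the letters only, and no match says only that these letters are not in this window.

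Among the proteins of high density lipoprotein (HDL), Apoa1 encodes the main structural protein of the particle, which also activates the cholesterol esterifying enzyme LCAT. Apoa1 (Entrez gene 11806) had log2 values of 8.87 and 9.14 on the FD arrays and of 7.42 and 7.62 on the ND arrays. Both FD arrays were higher than both ND arrays, with a gap of 1.24 between the nearest of them. The mean was 9.01 ± 0.20 in FD and 7.52 ± 0.14 in ND (SD over 2 arrays in each diet), a difference of 1.48 with a standard error of 0.17 from the arrays, or 2.79-fold. A positive difference of this size or more was found in 9 of the 18211 probe sets.

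Apoa2 encodes the second most abundant protein of HDL. Its log2 values were 8.95 and 9.05 on the FD arrays and 7.52 and 7.69 on the ND arrays. The diets were again apart, here by 1.26 between the nearest arrays. The means differed by 1.40 ± 0.10 (array SE), or 2.63-fold, and 11 probe sets had a positive difference at least as large. Apoa2 lies on another chromosome than Apoa1, and the difference of Apoa1 exceeded that of Apoa2 by less than the array SE of either gene.

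Apom encodes a lipocalin that carries sphingosine 1-phosphate on HDL and is made in liver and kidney. It had log2 values of 6.56 and 6.23 on the FD arrays, against 6.41 and 6.36 on the ND arrays. The arrays overlapped and the duplicates of FD differed by 0.32, more than the difference of 0.01 ± 0.16 between the diets. With these arrays no difference was detectable for Apom, and its sign turned with cyclic loess (-0.07), relative to the adipocyte list (-0.16), without FD array 1 (-0.15) and without ND array 2 (-0.02).

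Apob encodes the large structural protein of chylomicrons, very low density and low density lipoprotein. On the FD arrays Apob had log2 values of 7.50 and 7.28, and on the ND arrays 6.45 and 6.40. No array of FD came within 0.83 of an array of ND. The difference was 0.96 ± 0.11 (array SE), or 1.95-fold, and 46 probe sets, or 0.253%, had a positive difference at least as large. The mean over the 4 arrays was 6.91, so that Apob was left out when a mean of at least 7 was asked for.

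Apoc3 encodes a small protein of triglyceride rich lipoproteins that inhibits lipoprotein lipase and slows the uptake of the particles. The FD arrays were at log2 values of 8.51 and 8.53 and the ND arrays at 7.59 and 7.89. The FD duplicates were almost equal, while those of ND differed by 0.30. The difference was 0.78 ± 0.15 (array SE), or 1.72-fold, with 0.522% of the 18211 probe sets at a positive difference at least as large.

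Apoa4 encodes a protein that small intestine, and in mice also liver, adds to chylomicrons and HDL. Its values were 7.70 and 7.72 in FD, against 7.41 and 7.34 in ND. Both FD arrays lay above both ND arrays, but the difference of 0.34 ± 0.03 (array SE) did not reach 1.5-fold, and 6.6% of the 18211 probe sets had one at least as large. Apoh encodes beta-2-glycoprotein I, a plasma protein that binds anionic phospholipids. It was at 6.82 and 6.77 in FD and at 6.17 and 6.56 in ND. The difference of 0.43 ± 0.20 was of the size of the gap of 0.39 between the ND duplicates. Apoh was called only with a threshold of 1.3-fold or when ND array 2 was left out (0.63). All 7 liver-type genes, Apom only by 0.01, had a higher mean in FD than in ND, and in 6 of them both FD arrays lay above both ND arrays, which was found in 36.3% of the 18211 probe sets.

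**Figure D2:**
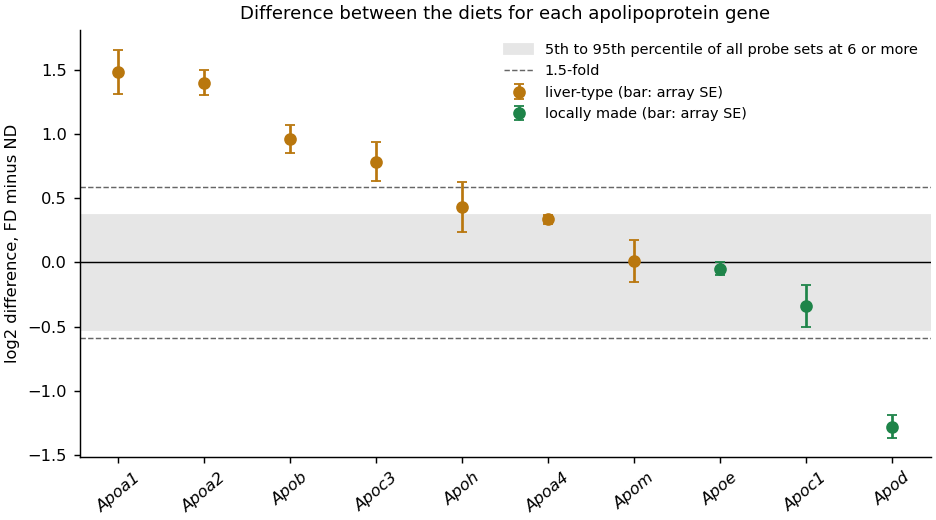
The log2 difference, FD minus ND, is plotted for each apolipoprotein gene from the largest to the smallest, with bars for the standard error from the duplicate arrays. Apoa1, Apoa2, Apob and Apoc3 lie above the line for 1.5-fold and Apod at -1.28 lies below it, while the grey band holds the differences of the 18211 probe sets with a mean log2 value of at least 6 from the 5th to the 95th percentile, -0.52 to 0.37.

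Of the locally made genes, Apod encodes a lipocalin that is not related in sequence to most other apolipoproteins and binds small lipids such as arachidonic acid. Apod had log2 values of 9.11 and 9.16 on the FD arrays and of 10.33 and 10.50 on the ND arrays. The diets lay apart by 1.17 between the nearest arrays. The mean was 9.13 ± 0.04 in FD and 10.41 ± 0.12 in ND (SD, n = 2 arrays each), so that the value in FD dropped by 1.28 ± 0.09 (array SE) on the log2 scale, and the level in ND was 2.43-fold that in FD. A negative difference of this size or more was found in 264 probe sets, or 1.45%.

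Apoe encodes a ligand of the LDL receptor family, through which cells take up remnant particles, and it is made by liver, macrophages and adipocytes. It was at 13.65 and 13.67 in FD and at 13.66 and 13.76 in ND. The arrays overlapped, and the difference was -0.05 ± 0.05 (array SE). The highest value of any probe set was between 14.29 and 14.42 on these arrays, so that Apoe lay near the top of the scale. Apoc1 encodes a small protein that moves between lipoproteins and inhibits several enzymes and receptors that act on them. Its values of 10.66 and 10.64 in FD were below those of 10.83 and 11.16 in ND. The difference of -0.34 ± 0.16 was about as large as the gap of 0.33 between the ND duplicates, and Apoc1 was not called. All 3 locally made genes had a lower mean in FD, although that of Apoe was lower by no more than its array SE. In Apoc1 and Apod both FD arrays lay below both ND arrays, which was found in 27.2% of the 18211 probe sets.

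**Figure D3:**
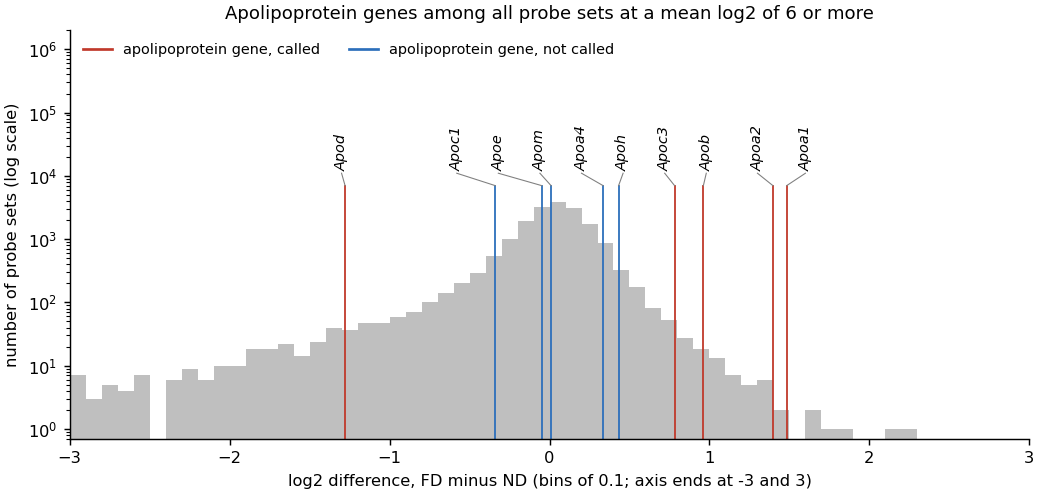
Grey bars give the number of probe sets, on a log scale, by their log2 difference, FD minus ND, for probe sets with a mean log2 value of at least 6. Lines mark the called apolipoprotein genes in red, with Apod at -1.28 and Apoc3, Apob, Apoa2 and Apoa1 at 0.78, 0.96, 1.40 and 1.48, and those not called in blue.

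Several of the genes are neighbours in the mouse genome. Apoa1, Apoc3, Apoa4 and Apoa5 follow each other on chromosome 9 in GRCm38.p6, and their differences between FD and ND were 1.48, 0.78, 0.34 and 0.23. Apoa5 encodes an activator of lipoprotein lipase that is made in liver. It was at 7.82 and 7.93 in FD and at 7.55 and 7.73 in ND, and was not called. The genes beside this group, Sik3 and Zpr1, had differences of -0.13 each. The 2 called genes of this group, Apoa1 and Apoc3, are thus next to each other, and no flanking gene was called.

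In the group on chromosome 7, Apoc2 and Apoc4 lie beside Apoc1 and Apoe. Apoc2, the gene of the protein that lipoprotein lipase needs as cofactor, was at 7.56 and 7.57 in FD and at 7.18 and 7.23 in ND, a difference of 0.36 ± 0.03 (array SE). Apoc4 had a difference of 0.33 ± 0.10, with 7.77 and 7.63 in FD and 7.31 and 7.45 in ND. None of the 4 genes was called. The neighbours Clptm1 and Tomm40 had differences of -0.10 and -0.07.

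**Figure D4:**
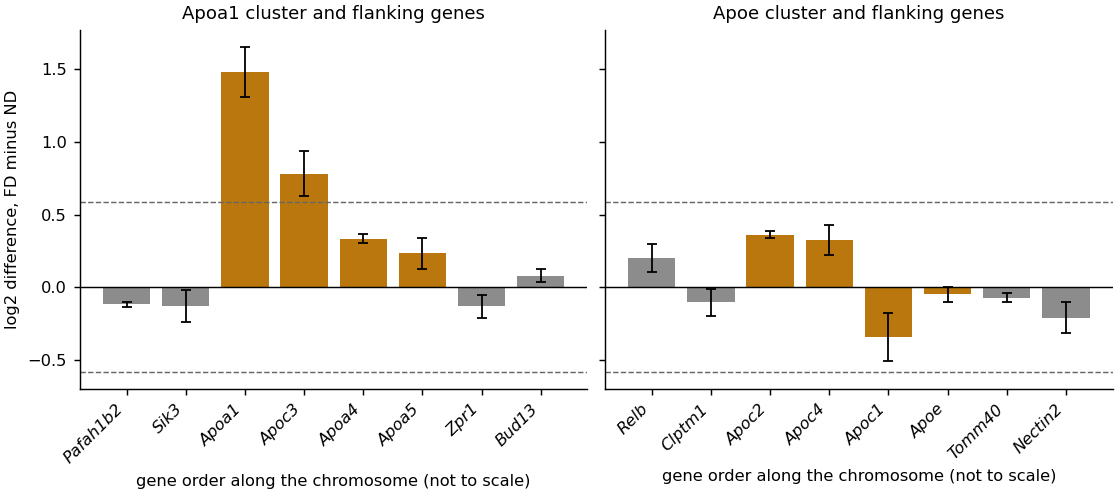
Bars give the log2 difference, FD minus ND, of the apolipoprotein genes (brown) of 2 gene groups and of the flanking genes (grey) in the order of the chromosome, with the standard error from the duplicate arrays and dashed lines at 1.5-fold. In the Apoa1 group the difference is 1.48 for Apoa1 and 0.23 for Apoa5, and in the Apoe group it is positive for Apoc2 and Apoc4, negative for Apoc1 and within its standard error of 0 for Apoe, with none of them called.

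Of 18 further measured apolipoprotein genes, 15 reached a mean log2 value of 6, and none was called in either direction. Their median difference was 0.32, and 16 of the 18 differences were positive. The largest were found in the serum amyloid A genes, which encode acute phase apolipoproteins of HDL. Saa3, which is expressed in adipose tissue, was at 7.56 and 7.32 in FD and at 6.94 and 6.98 in ND, with a difference of 0.48 (0.60 and called without FD array 2). Saa4, with a mean of 5.78 in ND, had a difference of 0.57 and was called without FD array 1 (0.67) or ND array 1 (0.60). Saa1 and Saa2, with differences of 0.65 and 0.50, stayed under a mean of 6, and as close paralogs they may pick up each other's transcripts. Clu, the gene of clusterin or apolipoprotein J, which is made in many tissues, was at 11.42 and 11.35 in FD and at 11.17 and 11.36 in ND, and these arrays overlapped.

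Other genes of liver were higher in FD as well. Of 19 genes of secreted liver proteins other than apolipoproteins at a mean of 6 or more, 12 were higher in FD and 1 was lower. Over all 18211 probe sets, 1.33% were called higher and 4.28% lower. The median difference over all 21 measured genes of that list was 0.69, against 0.78 for the liver-type apolipoproteins. Alb, the gene of serum albumin, was at 11.42 and 11.47 in FD and at 7.37 and 7.23 in ND. Serpina1c and Serpina1b, which encode forms of alpha-1-antitrypsin, had differences of 3.02 and 1.86, although the transcripts of these close paralogs may be picked up by each other's probes. Serpina1a had a difference of 3.88 and was not called, because its mean of 5.66 was under 6. Ahsg, the gene of fetuin-A, had a difference of 2.25, and Ttr, the gene of transthyretin, of 1.65. The other genes that were higher were Kng1, Fgb, Ambp, Fgg, Hpx, F2 and Vtn, with differences between 0.61 and 1.34. Kng1 and Fgg averaged 5.64 and 5.88 in ND and reached a mean of 6 only through FD. With values under 6 set to 6, their differences were 0.98 and 0.81. In FD 1 of the 21 measured genes had a mean under 6, and in ND 4 had. Fetub, the gene of fetuin-B, went the other way, at 7.32 and 7.08 in FD and at 8.00 and 8.04 in ND. Fga was lower as well, at 6.81 and 6.97 in FD and at 7.34 and 7.23 in ND, but was not called. Of the 21 differences, 19 were positive, while 56.4% of the 18211 probe sets had a difference of 0.0003 or more. The mean log2 value over the list was between 8.01 and 8.02 on the FD arrays and was 6.86 on both ND arrays.

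Enzymes and transporters of hepatocytes are not secreted. Of 13 such genes at a mean of 6 or more, 4 were higher in FD, Cps1, Hpd, Gys2 and Slc10a1, and G6pc was lower. The shares over all 18211 probe sets were 1.33% higher and 4.28% lower. The number called higher was between 2, without FD array 2, and 6, without ND array 2. In the latter case 15 genes reached a mean of 6, since Fabp1 and Cyp2c29 passed that level only without an ND array. The median difference over all 20 measured genes was 0.41, and 17 of the differences were positive. Among the 18211 probe sets, 56.4% had a difference of 0.0003 or more. Hal (-0.39) and Fbp1 (-0.22) were lower in FD without being called. The mean log2 value of the list was between 6.71 and 6.77 on the FD arrays and 6.31 on both ND arrays. Fabp1, the gene of the fatty acid binding protein of liver, was at 7.36 and 7.21 in FD and at 4.62 and 4.73 in ND. It was not called, because its mean of 5.98 over the 4 arrays was under 6. Cyp7a1, the rate-limiting enzyme of bile acid synthesis in liver, was at 4.85 and 5.14 in FD with both ND arrays in between, and so under 6 on all arrays. In FD 5 of the 20 genes had a mean under 6, and in ND 7 had. The part of liver RNA in the differences of Apoa1, Apoa2, Apob and Apoc3 was not tested, and with 1 RNA pool for each diet it cannot be told apart from an effect of the diet. Enterocytes are the other main source of Apoa4 and Apob. Of their genes 5 reached a mean of 6 and none was called, and the median difference of all 8 measured was 0.05.

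Beside the lower value of Apod stood the genes of the epididymis, the organ to which the gonadal fat pad of males is attached. Of 9 such genes at a mean of 6 or more, 6 were called lower in FD and none was called higher. Of the 18211 probe sets, 4.28% were called lower and 1.33% higher. Adam7, which encodes a membrane protein of epididymal epithelium, was at 5.48 and 5.61 in FD and at 12.65 and 12.62 in ND. The differences of the others called lower were -6.07 for Defb22, -5.95 for Rnase9, -3.13 for Rnase12, -1.51 for Spink8 and -1.16 for Lcn5. Adam7, Defb22 and Rnase9 averaged 5.55, 5.43 and 4.65 in FD. They thus reached a mean of 6 only through ND, which limits the comparison with the share of all probe sets. Of the 11 measured genes, 4 had a positive difference, Lcn8, Lcn9, Cst11 and Rnase10, between 0.13 and 0.18. Rnase10 was under 6 on all arrays. The mean log2 value of the list was between 6.49 and 6.51 on the FD arrays and between 8.70 and 8.76 on the ND arrays, and 5 of the 11 measured genes had a mean under 6 in FD and 2 in ND. The part of epididymal RNA in the difference of Apod was not tested. Nor was it tested for the lower values of Lrp2, Lipg, Mia2 and Mttp given below. Adipocytes, macrophages and fibroblasts are the cells that make Apod, Apoe and Apoc1 in fat tissue, and none of their listed genes was called lower in FD. What the number of such cells adds to the difference of Apod was not tested. None of 14 adipocyte genes was called, with a median difference of 0.17. Of 16 macrophage genes 3 were higher, Itgam, C1qb and C1qc, and of 10 fibroblast genes 3 were higher, Col3a1, Lum and Thy1, with none lower in either list. The median differences were 0.31 and 0.49. C1qb was not called without FD array 2 (0.58) or ND array 1 (0.45), nor was C1qc without ND array 1 (0.47). Of 6 mesothelial genes, 4 were higher, Msln, Upk1b, Upk3b and Lrrn4, with a median of 0.99 for the list.

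Lipoproteins are taken up by receptors of the LDL receptor family and by the HDL receptor SR-BI. Of 12 measured genes of receptors and their regulators, 1 was lower in FD and none was higher, with a median difference of 0.17. Over all 18211 probe sets, 4.28% were lower and 1.33% higher. The gene that was lower is Lrp2, the gene of megalin, an endocytic receptor of absorptive epithelia that binds many ligands, apolipoproteins among them. It was at 8.17 and 8.19 in FD and at 10.43 and 10.40 in ND, a difference of -2.24. Vldlr, the gene of the receptor for very low density lipoprotein, was at 10.78 and 10.73 in FD and at 10.29 and 10.31 in ND, and Sorl1, a sorting receptor, had a difference of 0.51. Scarb1, the gene of SR-BI, had a difference of 0.33, and Lrp1, a receptor of Apoe remnants in adipocytes, of 0.18. In these 4 genes both FD arrays lay above both ND arrays, as in 36.3% of the 18211 probe sets, and none was called.

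Lipases and transfer proteins change the particles in plasma and at the vessel wall. Of 10 such genes, Pon1 was higher and Lipg was lower in FD, against 1.33% higher and 4.28% lower of the 18211 probe sets. Pon1, an enzyme of liver that circulates on HDL, was at 7.03 and 7.11 in FD and at 6.27 and 5.85 in ND. Lipg, the gene of endothelial lipase, which cleaves phospholipids of HDL, was at 7.29 and 7.17 in FD and at 9.75 and 9.82 in ND, a difference of -2.56. Lpl, the lipoprotein lipase that Apoc2 activates and Apoc3 inhibits, was at 13.77 and 13.66 in FD and at 13.70 and 13.75 in ND, which overlapped near the top of the scale. Its inhibitor Angptl4 had a difference of 0.45 and was not called.

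In the formation of HDL, the transporter Abca1 loads cholesterol and phospholipid on Apoa1, and the protease Bmp1 cuts the propeptide of Apoa1. Of 7 genes of this list 2 were higher in FD, Pcolce2 and Pcolce, which encode enhancers of procollagen processing by Bmp1. The share called higher over all 18211 probe sets was 1.33%. Pcolce2 averaged 10.05 ± 0.02 in FD and 8.94 ± 0.09 in ND (SD over 2 arrays in each diet), a difference of 1.11, and Pcolce had one of 0.64. Abca1 and Bmp1 had differences of 0.08 and 0.34 and were not called. The list had a median of 0.34.

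Assembly of Apob into lipoproteins needs the microsomal triglyceride transfer protein, encoded by Mttp, and its messenger RNA is edited by Apobec1. Of 9 genes of assembly and editing at a mean of 6 or more, 2 were lower in FD, Mia2 and Mttp. The share called lower over all 18211 probe sets was 4.28%. Mttp was at 7.86 and 7.93 in FD and at 8.48 and 8.53 in ND, a difference of -0.61, and was not called without FD array 1 (-0.58). Mia2, which helps large cargo leave the endoplasmic reticulum, averaged 8.26 ± 0.19 in FD and 9.96 ± 0.06 in ND (SD over 2 arrays in each diet), a difference of -1.70. Apobec1 had a difference of 0.05, and its values of 9.35 and 9.30 in FD and of 9.19 and 9.35 in ND overlapped.

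None of 19 genes of transcription factors that are known to act on apolipoprotein genes was called, and their median difference was 0.14. Hnf4a, the nuclear receptor that drives many apolipoprotein genes in liver, was at 7.48 and 7.57 in FD and at 7.77 and 7.67 in ND. Its difference was -0.20, and 15.6% of the 18211 probe sets had a negative one at least as large. Nr1d1, the clock repressor REV-ERBα that lowers Apoc3 in liver, was at 12.68 and 12.80 in FD and at 12.15 and 12.24 in ND, a difference of 0.55 that passed the threshold without FD array 1 (0.61) or ND array 2 (0.59). Nr1h3, the gene of LXRα, which raises Apoe in macrophages and adipocytes, had a difference of 0.20.

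**Figure D5:**
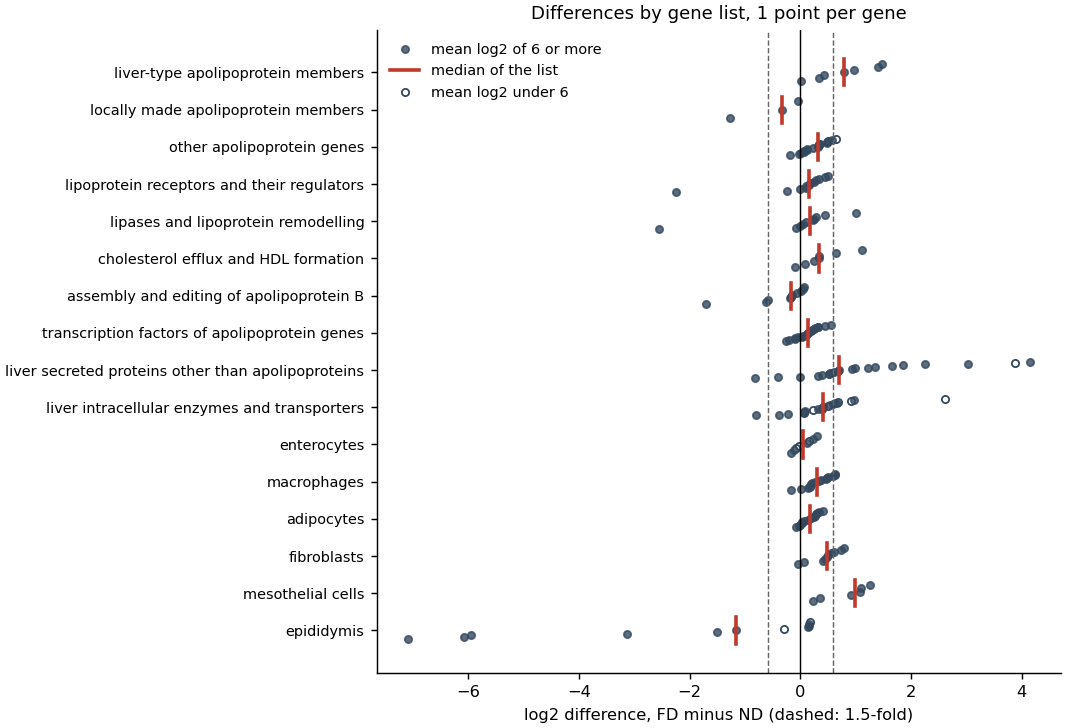
Points give the log2 difference, FD minus ND, of each measured gene by list, open where the mean log2 value is under 6, with the median of the list in red and dashed lines at 1.5-fold. The median is 0.78 for the liver-type apolipoproteins and 0.69 for the secreted liver proteins, whose differences run from -0.82 to 4.14. It is 0.99 for the mesothelial genes and 0.49 for the fibroblast genes. The locally made apolipoproteins have a median of -0.34 and the epididymal genes of -1.16.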

How the data were processed

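The deposited values are log2 expression values, which the authors obtained with RMA according to the submitters' processing notes. RMA subtracts background, brings the arrays to a common distribution and summarises the probes of a probe set, and it can compress differences of low and of very high probe sets. Its software and genome build are not stated in what was read here. The paper describes the feeding experiment but not the arrays, whose design was taken from the sample labels. Precision is limited by the number of arrays.

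No further normalization was applied. Differences are means of log2 values, FD minus ND, with a standard error from the duplicate arrays alone. Over all 21225 probe sets the SD between duplicates was 0.10 in FD and 0.13 in ND, against an SD of 0.41 of the difference between the diets.

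Symbols came from the platform annotation and were set against RefSeq genes of GRCm38.p6 by Entrez identifier, for gene order and promoters. That build may not be the one behind the probe sets. The 10 genes, their classes and 14 other gene lists, with 182 of 204 entries named on the arrays, were chosen with earlier results of these data known. Genes not named there were not analysed here. The text names all 10 genes and their neighbours, and from each other list called genes and up to 4 with the largest differences. Lrp1, Clu, Adipoq, Hnf4a, Nr1h3, Lpl, Abca1, Apobec1 and Cyp7a1 were added for their roles, after their values were seen. Fga, Hal, Fbp1, Lcn8, Lcn9, Cst11 and Rnase10 were added because they went against most of their list, also after their values were seen.

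The alternatives were no filter on level or 1 at 7, thresholds of 1.3-fold and 2-fold, arrays centred on their medians, cyclic loess (limma 3.58.1 in R 4.3.3), differences relative to the adipocyte list, values under 6 set to 6, Apoc1 taken as liver-type, and leaving out each array. Calls were also tested on simulated data with known differences. Python 3.11.15 with pandas 2.3.3 was used.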

Additional observations from a re-analysis of the deposited data

How the results depend on the processing

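Apoa1 and Apoa2 stayed higher in FD and Apod lower under all alternatives, and Apoc3 stayed higher under all but the 2-fold threshold. At 2-fold Apoc3 and Apob were lost, so that 2 genes, both liver-type, were higher. Apob was also lost with the filter at 7, and Apoh was added at 1.3-fold and without ND array 2, so that without 1 array 4 or 5 genes were higher. The median difference of the liver-type genes was 1.09 with the filter at 7, 0.83 with arrays centred on their medians, 0.74 with cyclic loess, 0.61 relative to the adipocyte list and 0.61 with Apoc1 as liver-type, and it lay between 0.63 and 0.93 without 1 array. That of the locally made genes was -0.51 relative to the adipocyte list, -0.66 without Apoc1, and between -0.50 without ND array 1 and -0.18 without ND array 2. The liver-type median exceeded the locally made median by 1.43 with the filter at 7. The scaling to the adipocyte list subtracts its median of 0.17 from all differences and puts the median of all probe sets at -0.14, against 0.03. With it 105 probe sets were higher and 1199 lower, against 242 and 780 in the values as deposited. At 1.3-fold 869 were higher and 1333 lower, and at 2-fold 41 and 386.

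No paired analysis was possible because no test was run, each diet being 1 RNA pool, and a replicate number does not tie an FD array to an ND array. Of 87 values of single apolipoprotein genes under the alternatives, 77 moved by less than the spread between duplicate arrays and 10 by more. No called gene changed its direction. The 77 are no measure of stability, because many of them could not move further. Leaving out an array cannot move a difference past that spread, nor turn its sign where the diets do not overlap. The higher filter on level and the setting of low values to 6 left these differences unchanged. The 10 arose with centred arrays, cyclic loess or scaling to the adipocyte list. The alternatives bear on array noise and scaling only. They cannot show how far other pools of mice, or fat pads with other amounts of liver or epididymal RNA, would give other values.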
